A study of Mus musculus with 8 samples.

Results

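The genes described here encode the nuclear part of the mitochondrial respiratory chain and the ATP synthase. They were chosen by symbol, as every gene whose name starts with Nduf, Uqcr, Cox4 to Cox8 or Atp5, together with Sdha, Sdhb, Sdhc and Sdhd, and 6 further entries on chromosomes 18 and 19 were not used here. The rule found 86 genes among the 23929 gene symbols of the deposited tables. By complex, 40 of them belong to complex I, 4 to complex II, 8 to complex III, 19 to complex IV and 15 to complex V. Complex I counts 5 core subunits, 27 accessory subunits and 8 assembly factors, among them Atp5sl, which carries an ATP synthase name. Ndufa4 was counted with complex IV, where its protein is now placed.

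RNA was sequenced from untreated pro-B cell lines, which are cultured B cell precursors from the bone marrow of 129SV mice. The Eµ-deleted line carries an Eµ-/- genotype, the loss of the intronic enhancer of the immunoglobulin heavy chain (IgH) locus. CBE line 2 and CBE line 1 are labelled CBE-/- and share the genotype IGCR1-/-, a loss of CTCF-binding elements in the intergenic control region of the same locus. The WT line is labelled wild type. Each line gave 2 libraries, 8 in all. The Eµ-/- and wild-type genotypes were each represented by 1 line, so in every comparison between genotypes genotype and line cannot be told apart. The sources do not state that the libraries of a line were separate cultures, so the p-values rest on a spread between libraries that may be only technical. The study as a whole addressed recombination at the IgH locus, and respiratory genes were not among its named questions.

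The respiratory chain passes electrons from NADH (complex I) and succinate (complex II) through ubiquinone to complex III, then by cytochrome c to complex IV, which reduces oxygen. Complexes I, III and IV pump protons across the inner mitochondrial membrane, and complex V uses the returning protons to make ATP. Most subunits are encoded in the nucleus and imported, while a few are encoded in mitochondrial DNA, so the nuclear genes of a complex must be matched both to each other and to the mitochondrial genome. Several complex IV subunits have a second gene used mainly in muscle, lung or testis. Proliferating lymphocyte precursors use the chain both for ATP and for the aspartate and pyrimidines that cell division needs.

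Levels are given as FPKM, fragments per kilobase of transcript and per M mapped reads. They are scaled by length, so a comparison between genes depends on the length used for each gene. The confidence intervals in the deposited tables imply 31.3 to 49.5 M reads per library. Values of the 2 libraries of a line correlated across genes at 0.978 to 0.992. Pro-B markers were present, with a summed level of 4331 to 5887 FPKM over 11 genes, 10 of them at 1 FPKM or more and Kit listed at 0. Of 8 T cell markers, Lck alone passed 1 FPKM, and Cd3e, Cd4 and Cd8a were listed at 0. Of 5 myeloid markers, Lyz2 and Itgam passed 1 FPKM, and the list summed to 1.61 to 8.85 FPKM. The 5 natural killer, 6 erythroid and 6 stromal markers summed to at most 2.47, 0.319 and 0.0300 FPKM.

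Almost every structural subunit was abundant. Of the 86 genes, 79 had an FPKM of 1 or more in at least 2 libraries and entered the tests. The other 7 were Ndufs5 and 6 tissue isoform genes. The median subunit, by mean FPKM over all libraries, stood at 413 FPKM in complex IV, 322 FPKM in complex V, 207 FPKM in complex III, 131 FPKM in complex II and 120.1 FPKM in complex I. The 8 complex I assembly factors, which help build the complex and do not remain in it, had a median of 16.3 FPKM.

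The most abundant gene was Atp5b, the catalytic β subunit of ATP synthase, at 970.2 FPKM. Ndufa4 led complex IV at 744 FPKM, Uqcrh, the hinge protein beside cytochrome c1, led complex III at 577 FPKM, and Ndufa3 led complex I at 299 FPKM. With Ndufs5 and the tissue isoform genes left out, the lowest subunits were Ndufa11 in complex I at 17.95 FPKM, Uqcrfs1 in complex III at 94.9 FPKM, Cox7c in complex IV at 140.3 FPKM and Atp5g1 in complex V at 144 FPKM. For WT replicate 1 the deposited intervals imply 4403 reads of Ndufa11 at 19.9 FPKM and 4230 reads of Ndufa3 at 319 FPKM. These implied reads are not counts, and whether the low rank of Ndufa11 depends on the length used for scaling was not tested. Within complex II the range was narrow, with Sdhb, the iron-sulfur subunit, at 208 FPKM and Sdhc, a membrane anchor, at 100.3 FPKM. Ndufs1, the largest iron-sulfur subunit of complex I, was its lowest core subunit at 57.0 FPKM.

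**Figure D1:**
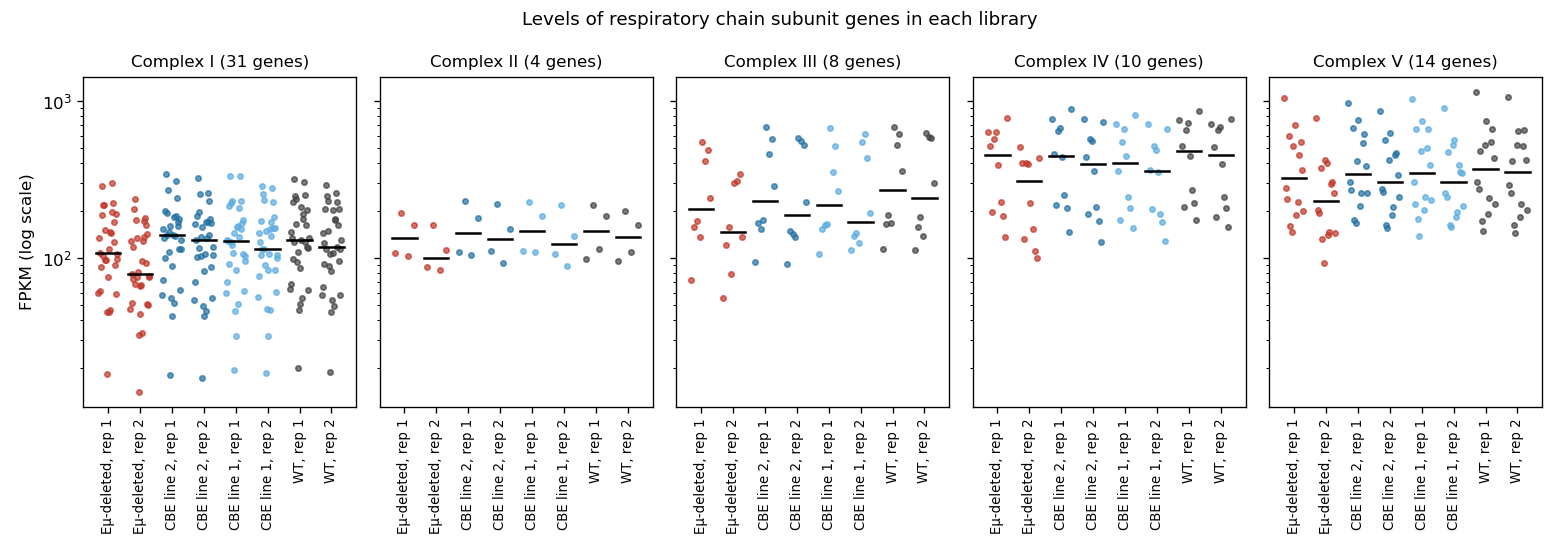
FPKM (log scale) of the structural subunit genes in each library, by complex, without the tissue isoform genes and Ndufs5; each point is 1 gene and each bar the median of a library. Complexes III, IV and V sit above complexes I and II, and Eµ-deleted replicate 2 has the lowest bar in every panel, 79.2 FPKM in complex I against 117 FPKM in WT replicate 2.

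Promoters of respiratory genes are known to bind NRF1, ETS factors of the GABP type, YY1 and estrogen-related receptors (ERR), so the letters of these motifs were searched on both strands in the RefSeq promoters of GRCm38.p6, from 250 bases before to 50 bases after each start. A promoter was found for 72 of the 86 genes, 3 of them by an older symbol. A gene was counted if any of its promoters held the motif. The NRF1 motif stood in 19 of these 72 genes (26.4%), against 12.9% of the 7860 tested genes with a promoter and 5.19% of all 27025 genes with a promoter. The YY1 motif AANATGGC stood in 17 (23.6%), against 11.3% of tested genes and 6.96% of all. The ERR motif TNAAGGTCA stood in 3 (4.17%), against 0.865% of tested genes and 1.43% of all. The ETS motif CCGGAAG stood in 15 (20.8%), near the 22.8% of tested genes, and in 9.93% of all. The 4 motifs do not contain one another, and a match describes letters only, not binding.

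The range is shown by 6 promoters, each as the 200 bases before the start, read 5′ to 3′ on the strand of the gene, with motif letters in capitals. Cox6a1 (chr5:115348959-115349158, minus strand), the general form of a complex IV subunit, holds 2 NRF1 motifs and 1 ETS motif. Sdhd (chr9:50603850-50604049, minus strand), a complex II anchor, holds 1 NRF1 and 1 ETS motif here. Ndufb5 (chr3:32736863-32737062, plus strand) holds a YY1 motif. Uqcrfs1 (chr13:30545317-30545516, minus strand) and Ndufa10 (chr1:92473759-92473958, minus strand) hold none of the 4 in this window, and neither does Cox7a1 (chr7:30183971-30184170, plus strand), a muscle isoform gene.
Cox6a1: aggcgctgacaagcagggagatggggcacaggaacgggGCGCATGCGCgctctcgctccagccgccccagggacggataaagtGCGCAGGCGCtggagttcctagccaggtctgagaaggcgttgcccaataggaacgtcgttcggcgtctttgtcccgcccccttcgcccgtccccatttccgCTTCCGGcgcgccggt
Sdhd: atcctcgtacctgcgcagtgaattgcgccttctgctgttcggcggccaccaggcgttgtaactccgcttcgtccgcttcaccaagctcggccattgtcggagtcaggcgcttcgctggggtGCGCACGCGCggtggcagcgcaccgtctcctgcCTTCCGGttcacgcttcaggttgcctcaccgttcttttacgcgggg
Ndufb5: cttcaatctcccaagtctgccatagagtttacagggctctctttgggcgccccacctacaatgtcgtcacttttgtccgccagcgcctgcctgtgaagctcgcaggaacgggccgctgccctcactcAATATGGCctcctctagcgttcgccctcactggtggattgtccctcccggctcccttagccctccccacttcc
Uqcrfs1: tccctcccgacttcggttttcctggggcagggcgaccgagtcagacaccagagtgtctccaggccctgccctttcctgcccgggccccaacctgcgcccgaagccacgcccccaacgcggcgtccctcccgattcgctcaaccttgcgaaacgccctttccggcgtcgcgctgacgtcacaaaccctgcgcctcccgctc
Ndufa10: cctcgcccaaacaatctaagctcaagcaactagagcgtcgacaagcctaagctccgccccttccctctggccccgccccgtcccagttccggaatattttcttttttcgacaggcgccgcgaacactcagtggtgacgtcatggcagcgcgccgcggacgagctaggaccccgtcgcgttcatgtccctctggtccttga
Cox7a1: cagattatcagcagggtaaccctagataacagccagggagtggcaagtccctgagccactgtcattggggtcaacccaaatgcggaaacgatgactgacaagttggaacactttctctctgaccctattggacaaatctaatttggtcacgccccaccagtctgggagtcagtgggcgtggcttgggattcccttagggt

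The first comparison set the Eµ-deleted line against WT. Respiratory genes lay lower in the Eµ-deleted line across all 5 complexes, most in complex III, but few single genes passed the test and the size differed between the 2 libraries. The summed FPKM of the complex III genes was 2222 and 1501 FPKM in the Eµ-deleted line, 2581 and 2401 FPKM in CBE line 2, 2398 and 2309 FPKM in CBE line 1, and 2811 and 2669 FPKM in WT. Both Eµ-deleted libraries were below all the others in complex III and in complex I. In complex I they had 3996 and 3089 FPKM, and the next lowest was CBE line 1 replicate 2 at 4059 FPKM. In complexes II, IV and V, Eµ-deleted replicate 1 was above CBE line 1 replicate 2, with 5652 against 4965 FPKM in complex V. The mean of the Eµ-deleted line was 67.9% of the WT mean for complex III, 76.7% for complex IV, 81.0% for complex V, 81.7% for complex I and 85.7% for complex II. Against the WT library of the same number, the share was lower in replicate 2 for every complex. It was 79.1% in replicate 1 and 56.2% in replicate 2 for complex III, and 92.9% and 68.2% for complex V. With 2 libraries against 2, no exact test on such a sum can pass 0.05, and a sum is led by its most abundant genes.

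Gene by gene, the median log2 difference of FPKM + 1 between the Eµ-deleted line and WT was -0.28 over the 79 tested genes, against 0.0060 over all 10479 tested genes. It was -0.58 in complex III, -0.45 in complex IV, -0.32 in complex V, -0.25 in complex II and -0.25 in complex I. The difference was below 0 for 75 of the 79 genes. In 53 of them (67.1%) both Eµ-deleted libraries were below both WT libraries, a pattern met by 29.9% of all tested genes. The 1 gene with both Eµ-deleted libraries above both WT libraries was Ndufaf6, in a direction met by 32.6% of all tested genes. In RNA from whole cultures, less of a transcript per cell and fewer cells carrying it cannot be told apart. Lck, which makes up nearly all of the T cell marker sum, also lay lower in the Eµ-deleted line, at 28.0 and 17.0 FPKM against 82.1 and 66.3 FPKM in WT, and its part in the result was not tested. The summed FPKM of all symbols was lowest in Eµ-deleted replicate 2 (490867), and after scaling each library to the same total the median of the 79 genes was -0.20, against 0.08 over all tested genes.

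In the Eµ-deleted line 3 of the 79 tested genes fell and none rose by limma at a Benjamini-Hochberg adjusted p of 0.05. An unadjusted p under 0.05 was met by 22 of the 79, against 3791 of all 10479 tested genes. Over all tested genes the test called 21.8%, with 10.4% lower, so 3 of 79 (3.80%) is below the background rate and is not a result about the group. Libraries with the same replicate number deviated together across lines, and a fit with the replicate number as a block called 28 of 79 lower (35.4%) and 0 higher, against 34% of all tested genes called with the block in either direction and 16.4% lower. The 28 comprised 13 genes of complex I, 1 of complex II, 5 of complex III, 7 of complex IV and 2 of complex V.

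Uqcrfs1, the Rieske iron-sulfur protein that passes electrons from ubiquinol to cytochrome c1, had 72.5 and 55.6 FPKM in the Eµ-deleted line, 94.3 and 91.6 FPKM in CBE line 2, 106 and 113 FPKM in CBE line 1, and 114 and 112 FPKM in WT. The Eµ-deleted libraries were the 2 lowest of all 8, with no overlap. The log2 difference from WT was -0.82 (SE 0.13, adjusted p = 0.00632 by limma). With either WT library left out the call was lost (adjusted p = 0.0549 and 0.0535).

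Ndufb3, an accessory subunit of the membrane arm of complex I, had 145 and 94.9 FPKM in the Eµ-deleted line, 182 and 168 FPKM in CBE line 2, 160.1 and 153 FPKM in CBE line 1, and 209.9 and 202 FPKM in WT. WT was highest and the Eµ-deleted line lowest, although the Eµ-deleted libraries lay far apart. The log2 difference from WT was -0.81 (SE 0.19, limma adjusted p = 0.0268). The call was lost without either WT library (adjusted p = 0.143 and 0.123), without either CBE line 2 library (0.0543 in both cases) and with only the libraries compared (0.108).

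Ndufb5, another membrane arm subunit, had 145 and 127 FPKM in the Eµ-deleted line, 137 and 134 FPKM in CBE line 2, 137 and 137 FPKM in CBE line 1, and 177 and 174 FPKM in WT. All 6 libraries of the deleted lines fell in one band below WT. Its log2 difference was -0.37 (SE 0.09, limma adjusted p = 0.0368), and the call was lost without either WT library, either CBE line 2 library or Eµ-deleted replicate 2 (adjusted p = 0.204, 0.177, 0.0918, 0.0917 and 0.0899). It was also lost with only the libraries compared (0.117), with TPM scaling (0.0525) and with a filter on a mean FPKM of 5 or more (0.0530). With only the libraries compared, Uqcrfs1 was the 1 gene still called lower (adjusted p = 0.0486).

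**Figure D2:**
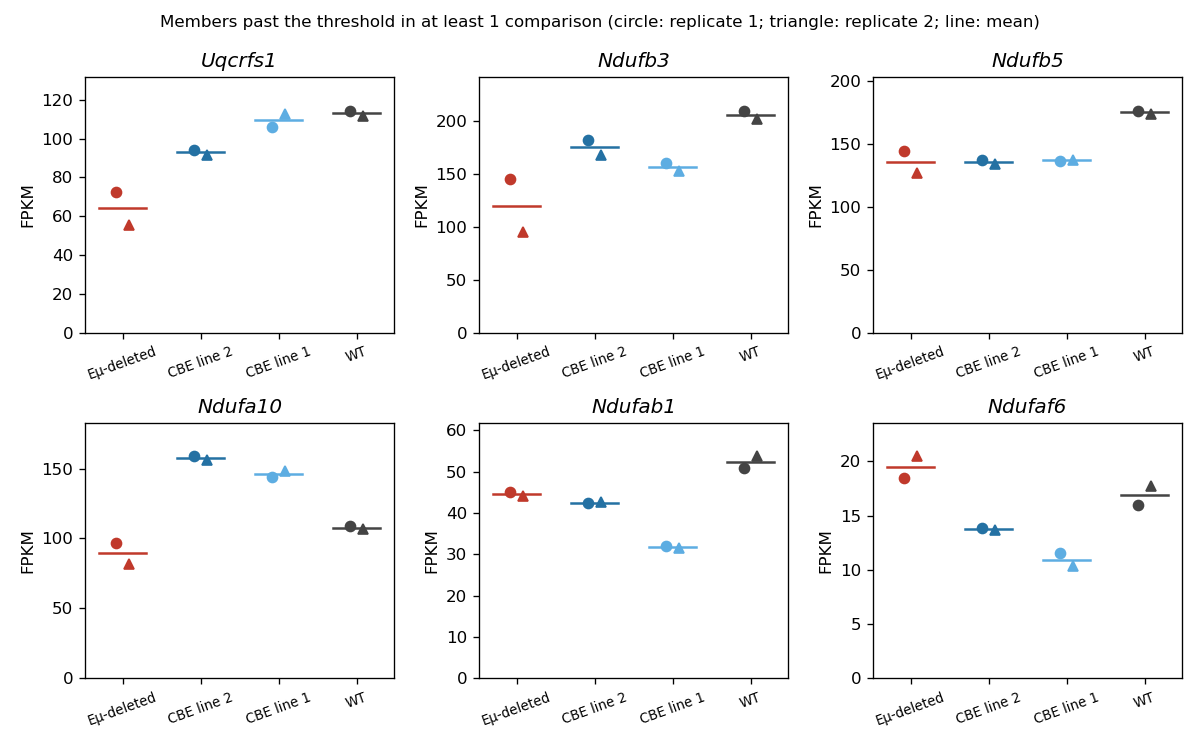
FPKM of the 6 genes past the threshold in at least 1 comparison, by line; circles are replicate 1, triangles replicate 2 and bars the mean of each line. Uqcrfs1 is lowest in the Eµ-deleted line (mean 64.1 FPKM), Ndufa10 highest in the CBE lines (158 and 146 FPKM), and Ndufab1 lowest in CBE line 1 (31.8 FPKM).

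Of the chosen set called core genes here, not all of them catalytic, 3 passed with the block and not without it. Ndufs7, which holds the last iron-sulfur cluster before ubiquinone, had 107 and 79.2 FPKM in the Eµ-deleted line against 134 and 124 FPKM in WT (log2 difference -0.48, SE 0.15, limma adjusted p = 0.0617, or 0.0233 with the replicate block). Cox4i1, the largest nuclear-encoded subunit of complex IV, had 637 and 505 FPKM in the Eµ-deleted line against 752 and 708 FPKM in WT (-0.36, SE 0.13, adjusted p = 0.0995, or 0.0441 with the block). Sdhd had 162 and 113 FPKM in the Eµ-deleted line against 184 and 162 FPKM in WT (-0.35, SE 0.22, adjusted p = 0.296, or 0.0446 with the block). In both lines replicate 2 was the lower library for each of these 3 genes.

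The other core genes named here did not pass in either fit. Their log2 differences between the Eµ-deleted line and WT were -0.18 for Ndufs1, -0.24 for Ndufs3, -0.25 for Ndufv2, -0.23 for Sdhb, -0.26 for Sdhc, -0.22 for the complex III core protein Uqcrc1, -0.17 for Cox5a, -0.28 for Atp5b and -0.33 for Atp5c1, the rotating γ subunit. Sdha, the flavoprotein of succinate dehydrogenase, stood apart at -0.0038 (SE 0.11), with 107 and 87.6 FPKM in the Eµ-deleted line against 98.3 and 95.6 FPKM in WT, so the 2 Eµ-deleted libraries lay on either side of WT. Uqcr11, a small complex III subunit named here after its values were seen, had the lowest log2 difference of all 79 genes, -0.86 (SE 0.29, limma adjusted p = 0.0846, or 0.00649 with the block). It had 239 and 135 FPKM in the Eµ-deleted line against 357 and 298 FPKM in WT.

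**Figure D3:**
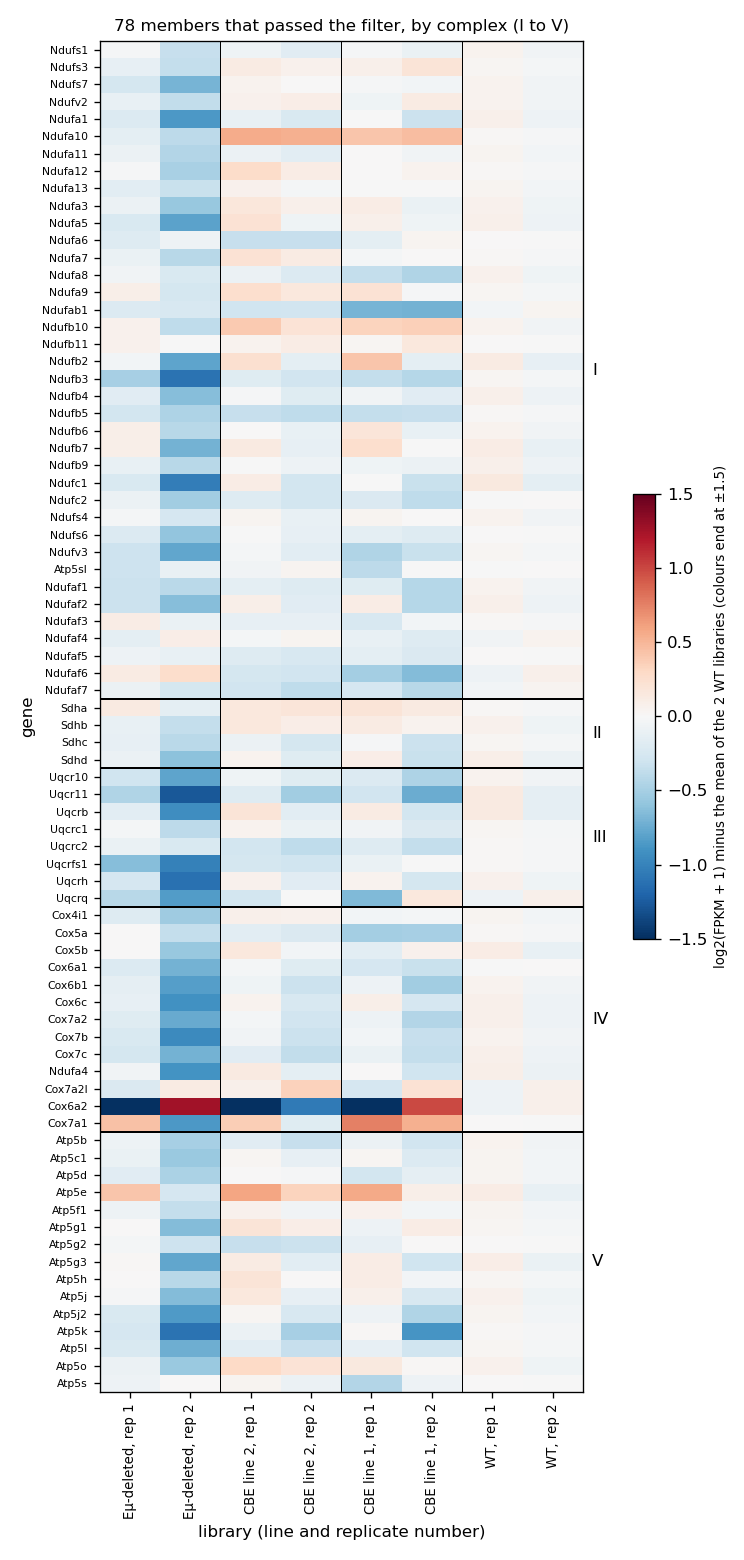
Log2(FPKM + 1) of 78 of the 79 tested genes in each library minus the mean of the 2 WT libraries, by complex; blue is lower and red higher than WT, with colours ending at ±1.5. Eµ-deleted replicate 2 is the bluest column, and it was the lowest of the 8 libraries for 62 of the 79 genes.

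The size of the Eµ-deleted difference depended on the replicate. Eµ-deleted replicate 2 was the lowest of the 8 libraries for 62 of the 79 genes, and Eµ-deleted replicate 1 for none. Within replicate number 1 the median log2 difference from WT was -0.15, with 70 of 79 genes below 0, and within replicate number 2 it was -0.45, with 73 of 79 below 0. The medians of all tested genes in the same pairs were 0.0030 and 0.02. Complex III had the lowest median of the 5 in both pairs, -0.33 and -0.85. Leaving out Eµ-deleted replicate 1 gave a median of -0.48, while leaving out Eµ-deleted replicate 2 gave a median of -0.12. No gene was called lower without WT replicate 1 or without WT replicate 2.

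The same replicate pattern ran through every line. Of the 79 genes, 72 were lower in replicate 2 than in replicate 1 of the Eµ-deleted line, 66 genes in CBE line 2, 55 genes in CBE line 1 and 69 genes in WT. The median log2 differences between replicates were -0.42, -0.12, -0.11 and -0.08 in that order of lines, against 0.06, 0.02, 0.03 and 0.0015 over all tested genes. In all 4 lines together, 48 of the 79 genes were lower in replicate 2, a pattern shown by 19.1% of all tested genes. The 3 genes higher in replicate 2 in all 4 lines were Atp5sl, Cox7a2l and the muscle isoform gene Cox6a2, in a direction shown by 26.1% of all tested genes. Cox7a2l, whose protein joins complexes III and IV into supercomplexes, had 227 and 287 FPKM in the Eµ-deleted line, 279 and 336 FPKM in CBE line 2, 222 and 306 FPKM in CBE line 1, and 249 and 278 FPKM in WT.

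Respiratory transcripts are short by the length used here, the median over all protein-coding transcripts listed for a gene. The members had a median of 707.5 nt, against 2091.5 nt over the tested genes with a known length. This length can differ from that of the main transcript, with 651 nt for Ndufs1, a large subunit, and 2413 nt for Ndufb2. Some members may therefore be in the wrong length class. By this length 56 of 78 members were under 1000 nt. In the Eµ-deleted line the replicate difference of these 56 short members had a median of -0.46, while that of 1788 other genes under 1000 nt was -0.0072. In CBE line 2 the values were -0.15 and -0.00032, in CBE line 1 -0.12 and 0.04, and in WT -0.10 and -0.02. Some other mitochondrial lists shifted the same way in the Eµ-deleted line, with a median of -0.26 for 72 mitochondrial ribosomal protein genes, -0.31 for 13 partner proteins and -0.21 for 21 genes of the citric acid cycle and pyruvate entry. Assembly factors outside the naming rule (-0.06, 17 of 30 lower), ubiquinone synthesis genes (-0.03, 7 of 12 lower) and regulators (0.06, 8 of 18 lower) lay closer to 0. The sources used here do not give what the replicate numbers stand for.

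**Figure D4:**
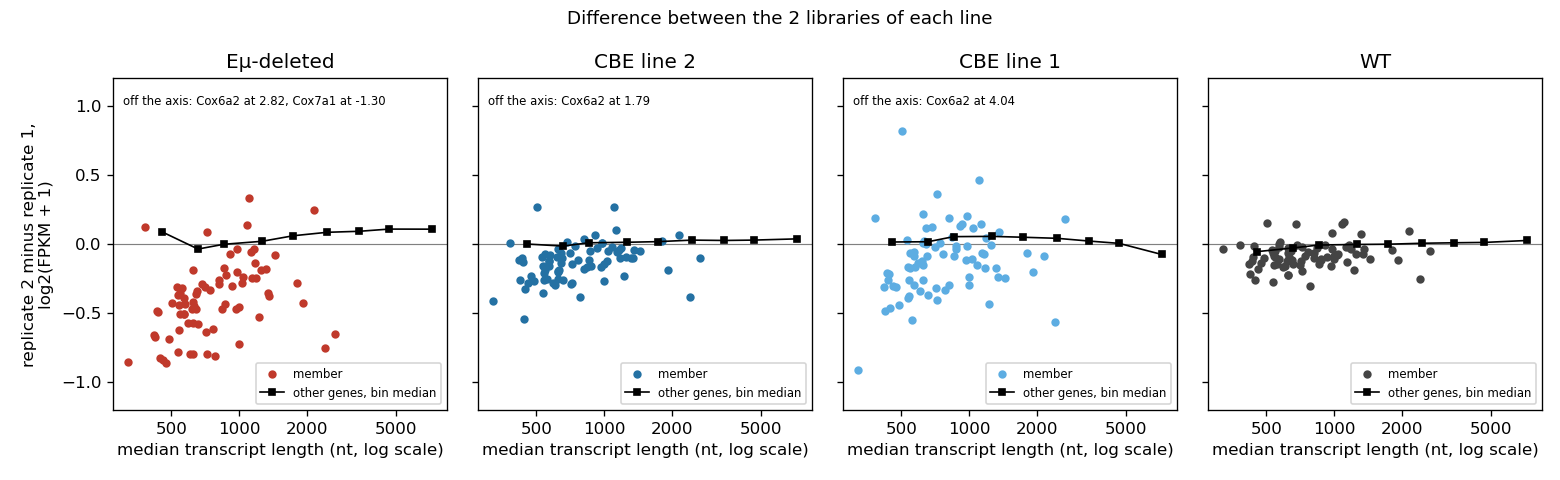
Replicate 2 minus replicate 1, in log2(FPKM + 1), against median transcript length (log scale) for each line; coloured points are the respiratory genes and black squares the medians of all other tested genes in bins of length. In the Eµ-deleted panel most respiratory genes lie below the black line at the same length, with a median of -0.46 under 1000 nt, and the genes beyond the axis are written in each panel.

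The second comparison set the 2 CBE lines together against WT. Here the respiratory genes as a group lay close to WT, and single complex I genes moved in both directions. The median log2 difference was -0.09 over the 79 genes, against 0.03 over all tested genes, and 53 of 79 were below 0. Complex III and complex IV had medians of -0.18 and -0.19, complex I -0.08, complex V -0.07 and complex II 0.0093. In 19 of 79 genes (24.1%) all 4 CBE libraries were below both WT libraries, against 18.8% of all tested genes, and in 5 (6.33%) all 4 were above, against 25% of all tested genes. The summed FPKM of complex III in CBE line 2 was 90.9% of the WT mean, and that in CBE line 1 was 85.9%. For complex I the shares were 99.1% in CBE line 2 and 96.3% of the WT mean in CBE line 1.

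By limma 1 gene rose and 3 fell, a total of 4 of 79 where 22.3% of all tested genes were called, with 12.5% higher and 9.78% lower. The block called 2 higher and 9 lower, against 33% of all tested genes in either direction, 17.9% higher and 15.1% lower, so the calls stood near or under the background under both fits. All 4 genes called without the block belong to complex I.

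Ndufa10, an accessory subunit of complex I with a nucleoside kinase fold, was higher in both CBE lines and lower in the Eµ-deleted line than in WT. It had 97.0 and 81.7 FPKM in the Eµ-deleted line, 159 and 156 FPKM in CBE line 2, 144 and 148 FPKM in CBE line 1, and 109 and 107 FPKM in WT. The 3 genotypes did not overlap. The log2 difference between the Eµ-deleted line and WT was -0.27 and did not pass in either fit (SE 0.10, limma adjusted p = 0.112, or 0.0630 with the block). The CBE lines exceeded WT by 0.49 on the log2 scale (SE 0.09, limma adjusted p = 0.00985), a call that was lost with either WT library left out (adjusted p = 0.0860 and 0.111).

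Ndufab1, the mitochondrial acyl carrier protein, serves both as a complex I subunit and in mitochondrial fatty acid synthesis. It had 45.1 and 44.0 FPKM in the Eµ-deleted line, 42.3 and 42.6 FPKM in CBE line 2, 31.9 and 31.6 FPKM in CBE line 1, and 50.9 and 53.7 FPKM in WT. WT was highest and CBE line 1 lowest, with replicates of each line close together. The CBE lines were lower than WT by a log2 difference of -0.50 (SE 0.07, limma adjusted p = 0.00284), a call lost without WT replicate 2 (adjusted p = 0.0583). The Eµ-deleted line differed from WT by -0.23 (SE 0.08, adjusted p = 0.0913).

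Ndufaf6, a complex I assembly factor related to phytoene synthases, had 18.5 and 20.5 FPKM in the Eµ-deleted line, 13.8 and 13.6 FPKM in CBE line 2, 11.6 and 10.3 FPKM in CBE line 1, and 16.0 and 17.8 FPKM in WT. Both CBE lines were below WT and the Eµ-deleted libraries above it. The CBE difference from WT was -0.43 (SE 0.09, limma adjusted p = 0.0176), lost without either WT library (adjusted p = 0.0724 and 0.188) or either CBE line 2 library (0.0672 and 0.0718). Ndufb5 fell by 0.36 on the log2 scale in the CBE lines (SE 0.08, limma adjusted p = 0.0231), with 5 of the 8 leave-out fits no longer calling it.

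Assembly factors of complex I lay mostly low in the CBE lines. All 8 had a log2 difference below 0, with a median of -0.17, and Ndufaf6 alone passed without the block. With the block Ndufaf1 (-0.24, adjusted p = 0.127 without and 0.0455 with it) and Ndufaf7 (-0.34, 0.0509 and 0.0238), both named after their values were seen, also passed. Cox5a, a matrix-side subunit of complex IV, had 459 and 439 FPKM in CBE line 2 and 359.9 and 361 FPKM in CBE line 1, against 518 and 505 FPKM in WT (log2 difference -0.35, SE 0.12, adjusted p = 0.0792, or 0.0344 with the block). Named after their values were seen, the other genes called with the block were Uqcr11, Uqcrc2 and Ndufa8, which were lower, and Atp5e, the ε subunit of ATP synthase, which was higher (0.40, adjusted p = 0.269 without and 0.0370 with it). Among the core genes not named so far in this comparison, log2 differences between the CBE lines and WT ran between -0.22 for Atp5b and 0.17 for Sdha, and none passed in either fit.

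The third comparison set CBE line 2 against CBE line 1, which share a genotype label. The median log2 difference was 0.08 over the respiratory genes and 0.03 over all tested genes, and 18 of 79 genes (22.8%) had both line 2 libraries above both line 1 libraries, against 29% of all tested genes. In 5 (6.33%) both were below, against 24.1%. Ndufab1 was the 1 gene called, 0.41 higher in line 2 on the log2 scale (SE 0.08, limma adjusted p = 0.0233), where 10.2% of all tested genes were called, 5.17% higher and 5.03% lower. With the block it was again the 1 gene called, where 16.6% of all tested genes were called, 8.25% higher and 8.32% lower. The libraries of the lines did not overlap, yet the call was lost in 6 of the 8 leave-out fits, with adjusted p up to 0.211. An unadjusted limma p under 0.05 was met by 4 of the 79 genes, against 2438 of all 10479 tested genes. All 4 were in complex I, which holds 39 of the 79.

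The fourth comparison set the line without Eµ against both CBE lines. It shares the Eµ-deleted libraries with the first comparison and the CBE libraries with the second. The median log2 difference of the 79 genes was -0.26, against -0.01 over all tested genes, with -0.43 in complex III. In 17 genes (21.5%) both Eµ-deleted libraries were below all 4 CBE libraries, against 13.8% of all tested genes, and in 3 (3.80%) both were above, against 11.7%. Within replicate 1 the median was -0.13 and within replicate 2 -0.40. Without Eµ-deleted replicate 2 it was -0.04, and without Eµ-deleted replicate 1 it was -0.49.

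Here 1 gene rose and 2 fell, against 12.4% of all tested genes called, 5.16% higher and 7.25% lower. Ndufa10 was lower in the Eµ-deleted line by a log2 difference of -0.76 (SE 0.09, limma adjusted p = 0.00249) and Ndufaf6 higher by 0.63 (SE 0.09, adjusted p = 0.00613). Both calls held with any 1 library left out. Uqcrfs1 was lower by a log2 difference of -0.66 (SE 0.11, adjusted p = 0.0129), a call lost without CBE line 2 replicate 1 (0.0602) or replicate 2 (0.0545). The block called 2 higher and 18 lower, against 22.2% of all tested genes in either direction, 9.86% higher and 12.4% lower. Ndufab1 was the second higher gene with the block (0.27, adjusted p = 0.0507 without and 0.0272 with it). Uqcrfs1 was among the 18 lower ones (limma adjusted p = 0.00818 with the block). The other core genes among them were Ndufs3 (-0.35, 0.0574 and 0.0323), Ndufs7 (-0.48, 0.0572 and 0.0216), Sdhb (-0.34, 0.0747 and 0.0199) and Cox4i1 (-0.38, 0.0854 and 0.0349). Each is given with its log2 difference and its adjusted p without and with the block.

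Tissue isoforms of complex IV fell into 2 kinds in these cells, those listed near 0 and a pair of muscle genes with measurable levels. Cox4i2, the lung and hypoxia form of Cox4i1, reached 0.256 FPKM at most. Cox6b2 and Cox8b, known from testis and from heart and muscle, reached 0.359 and 0.208 FPKM, and the hypoxia gene Ndufa4l2 reached 0.187 FPKM. Cox7b2 and Cox8c, known from testis, were listed at 0 in all 8 libraries. Their general partners were high throughout, with Cox4i1 at 505 to 767 FPKM, Cox6b1 at 396 to 725 FPKM and Ndufa4 at 435 to 892 FPKM.

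Cox6a2, the heart and muscle form of subunit 6a, had 9.23 and 71.3 FPKM in the Eµ-deleted line, 3.19 and 13.5 FPKM in CBE line 2, 2.67 and 59.2 FPKM in CBE line 1, and 27.8 and 30.9 FPKM in WT. Replicate 2 was the higher library in all 4 lines. The lines overlapped, except that both libraries of CBE line 2 were below both WT libraries. Of the sum of Cox6a1 and Cox6a2 it made up 1.60% and 15.1% in the libraries of the Eµ-deleted line, 0.496% and 2.29% in those of CBE line 2, 0.483% and 10.3% in those of CBE line 1, and 4.08% and 4.50% in those of WT. No comparison passed (Eµ-deleted against WT, log2 difference -0.16, SE 1.44, limma adjusted p = 0.958). Its entry overlaps the end of Itgad by 69 bases in mm9, and Itgad had at most 0.121 FPKM.

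Cox7a1, the muscle form of subunit 7a, had 22.4 and 8.51 FPKM in the Eµ-deleted line, 21.3 and 14.3 FPKM in CBE line 2, 28.0 and 23.9 FPKM in CBE line 1, and 16.3 and 16.2 FPKM in WT. CBE line 1 was highest, and the other lines overlapped. It made up 5.29 to 11.2% of the sum of Cox7a1 and its general partner Cox7a2, which had 152 to 272 FPKM. No comparison of Cox7a1 passed. Of the general partners, Cox6a1 and Cox7a2 were lower in the Eµ-deleted line than in WT with the block (log2 differences -0.45 and -0.47, adjusted p = 0.0414 and 0.0231) and not without it (0.109 and 0.177). Cox6b1 likewise had -0.48 (adjusted p = 0.0454 with and 0.223 without the block).

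**Figure D5:**
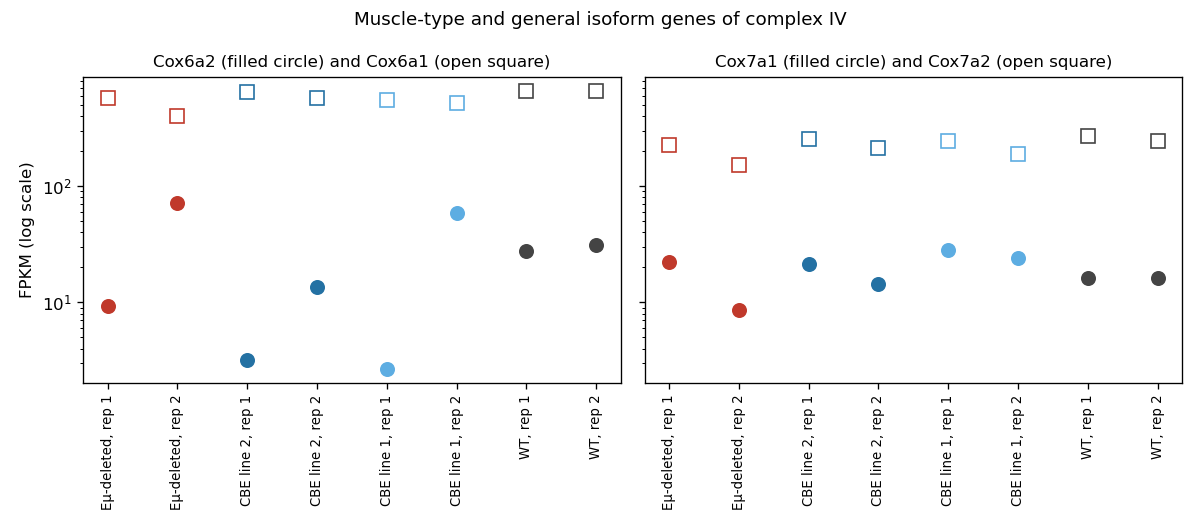
FPKM (log scale) of the muscle-type genes Cox6a2 and Cox7a1 (filled circles) and their general partners Cox6a1 and Cox7a2 (open squares) in each library. The partners have 152 FPKM or more in every library, the replicates of CBE line 1 stand at 2.67 and 59.2 FPKM of Cox6a2, and Cox7a1 lies between 8.51 and 28.0 FPKM.

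The membrane ring of ATP synthase is built from subunit c, which 3 genes encode with the same mature protein. Atp5g3 had 701 and 404 FPKM in the Eµ-deleted line, 756 and 621 FPKM in CBE line 2, 746 and 564 FPKM in CBE line 1, and 741 and 647 FPKM in WT. Atp5g2 had 512 and 420.4 FPKM in the Eµ-deleted line, 413 and 418 FPKM in CBE line 2, 481 and 525 FPKM in CBE line 1, and 525 and 522 FPKM in WT. Atp5g1 had 146 and 92.8 FPKM in the Eµ-deleted line, 167 and 156 FPKM in CBE line 2, 139 and 158 FPKM in CBE line 1, and 148 and 143 FPKM in WT. Atp5g3 was lower in replicate 2 of every line, and the share of Atp5g2 in the summed FPKM ranged from 30.9% in CBE line 2 replicate 1 to 45.8% in Eµ-deleted replicate 2. No comparison of these genes passed in either fit.

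Ndufs5, an accessory subunit of complex I, was listed at 0.000111 to 0.000191 FPKM in 6 libraries, at 0.585 FPKM in CBE line 2 replicate 1 and at 2.20 FPKM in WT replicate 2. An entry named BC002163 covers nearly the same interval (mm9 chr4:123389953-123395404) and had 78.0 and 56.6 FPKM in the Eµ-deleted line, 72.9 and 65.7 FPKM in CBE line 2, 89.1 and 70.2 FPKM in CBE line 1, and 90.2 and 80.4 FPKM in WT. Another entry of the same name (mm9 chr16:42955693-42956192) had higher values, from 196 FPKM in Eµ-deleted replicate 2 to 322 FPKM in WT replicate 1. The sources used here do not give how reads were divided between overlapping entries or near-identical copies, and the low Ndufs5 values do not show that the gene was off. The same limit applies to members with processed pseudogenes.

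Genes that work with the chain but lie outside the naming rule were counted from lists chosen with earlier results of these data known. In the Eµ-deleted line against WT, 1 of 30 assembly factors rose and 5 fell, 0 of 72 mitochondrial ribosomal protein genes rose and 5 fell, 0 of 12 ubiquinone synthesis genes rose and 2 fell, 0 of 13 partner proteins rose and 1 fell, 1 of 21 citric acid cycle and pyruvate genes rose and 4 fell, and 2 of 18 regulators rose and 0 fell. Over all tested genes 11.3% were called higher and 10.4% lower in that comparison. The regulators called higher (11.1%) were near that share, the ribosomal (6.94%) and partner (7.69%) genes called lower were under it, and the assembly factors (16.7%), ubiquinone genes (16.7%) and citric acid cycle genes (19%) called lower were above it. In the CBE lines against WT the corresponding counts were 1 and 6, 0 and 4, 0 and 3, 0 and 2, 1 and 3, and 0 and 1, where 12.5% of all tested genes were called higher and 9.78% lower. The medians in the Eµ-deleted line against WT were -0.23 for assembly factors, -0.23 for mitochondrial ribosomal proteins, -0.25 for ubiquinone synthesis, -0.26 for partners, -0.22 for the citric acid cycle list and 0.11 for regulators. With the block, the genes lower in the Eµ-deleted line than in WT were 9 of the assembly factors (30%), 21 of the ribosomal genes (29.2%), 3 of the ubiquinone genes (25%), 3 of the partners (23.1%), 7 of the citric acid cycle list (33.3%) and 2 of the regulators (11.1%), against 16.4% of all tested genes. Higher with the block were 2 assembly factors (6.67%), 1 citric acid cycle gene (4.76%) and 5 regulators (27.8%), against 17.6% of all tested genes. For the CBE lines against WT the block gave 9 assembly factors (30%), 10 ribosomal genes (13.9%), 4 ubiquinone genes (33.3%), 2 partners (15.4%), 8 citric acid cycle genes (38.1%) and 2 regulators (11.1%) lower, against 15.1% of all tested genes. It gave 1 gene higher in each list other than ubiquinone synthesis, which had 0, against 17.9% of all tested genes.

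Among assembly factors, Uqcc2, needed to build complex III, had 70.5 and 40.8 FPKM in the Eµ-deleted line, 129.6 and 110.0 FPKM in CBE line 2, 123 and 103 FPKM in CBE line 1, and 134 and 117 FPKM in WT. The Eµ-deleted libraries stood below all 6 others, by a log2 difference of -1.21 from WT (SE 0.25, limma adjusted p = 0.0175) and of -1.10 from the CBE lines (SE 0.22, adjusted p = 0.0212). Sdhaf1, which helps insert iron-sulfur clusters into complex II, had 18.3 and 17.5 FPKM in the Eµ-deleted line, 21.5 and 20.2 FPKM in CBE line 2, 15.9 and 17.5 FPKM in CBE line 1, and 31.6 and 30.8 FPKM in WT. All 6 libraries of the deleted lines were below WT, with log2 differences of -0.77 in the Eµ-deleted line (SE 0.09, adjusted p = 0.00171) and -0.71 in the CBE lines (SE 0.08, adjusted p = 0.00102). Other falls in the Eµ-deleted line included Coa6 (-0.48), Nubpl (-0.45) and Foxred1 (-0.37), and in the CBE lines Nubpl (-0.66), Cox20 (-0.44) and Cox17 (-0.39). Atpaf1, which chaperones the ATP synthase β subunit, rose in both (0.77 and 0.57). Against the CBE lines, Ecsit rose in the Eµ-deleted line (0.38).

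In the pyruvate and citric acid cycle list, Mpc2, a subunit of the mitochondrial pyruvate carrier, had 47.3 and 45.2 FPKM in the Eµ-deleted line, 51.7 and 51.6 FPKM in CBE line 2, 40.7 and 43.8 FPKM in CBE line 1, and 144 and 139.8 FPKM in WT. The deleted lines formed 1 band well below WT, with log2 differences of -1.60 in the Eµ-deleted line (SE 0.08, limma adjusted p = 4.63e-05) and -1.58 in the CBE lines (SE 0.07, adjusted p = 2.15e-05). Suclg2, the GTP-specific β subunit of succinyl-CoA ligase, had 22.3 and 17.8 FPKM in the Eµ-deleted line, 11.4 and 10.4 FPKM in CBE line 2, and 20.1 and 15.5 FPKM in CBE line 1, and was listed at 0.0103 and 0 FPKM in WT. It passed in both comparisons with WT, and the lines separated without overlap except the Eµ-deleted line and CBE line 1. Mpc1, the partner of Mpc2, fell in both (-0.51 and -0.40), Mdh1 and Pdhb fell in the Eµ-deleted line (-0.88 and -0.35), and Pdha1 fell in the CBE lines (-0.36). Both comparisons share the 2 WT libraries.

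Of the regulators, Gabpa and Gabpb1, the subunits of the ETS factor whose motif was searched in the promoters, rose in the Eµ-deleted line against WT. Gabpa had 24.5 and 29.0 FPKM in the Eµ-deleted line against 18.6 and 19.6 FPKM in WT (log2 difference 0.46, SE 0.10, limma adjusted p = 0.0243), and Gabpb1 31.9 and 39.6 FPKM against 25.4 and 25.0 FPKM in WT (0.48, SE 0.12, adjusted p = 0.0296). Gabpa overlaps Atp5j by 451 bases, and whether counting used the strand is not given. Tfb1m, a methyltransferase of mitochondrial ribosomal RNA, fell in the CBE lines (-0.47). Falls among mitochondrial ribosomal proteins were led by Mrpl52 (-0.85), Mrps24 (-0.75), Mrpl33 (-0.66) and Mrpl36 (-0.55) in the Eµ-deleted line and by Mrpl24 (-0.83), Mrpl32 (-0.58), Mrpl36 (-0.49) and Mrps34 (-0.48) in the CBE lines. Between the CBE lines Mrps18a was higher in line 2 (0.57), and Mrpl24 (-0.70) and Suclg2 were lower. For ubiquinone synthesis, Coq9 (-0.48) and Pdss1 (-0.31) fell in the Eµ-deleted line, and Coq6 (-0.63), Coq3 (-0.63) and Coq2 (-0.40) in the CBE lines, while Coq6 and Coq3 were higher in the Eµ-deleted line than in the CBE lines (0.59 and 0.37). Among partners, Etfb (-0.46) fell in the Eµ-deleted line, and the phosphate carrier Slc25a3 (-0.51) and Higd2a (-0.49) in the CBE lines.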

How the data were processed

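Gene expression was measured by RNA-seq in 8 libraries. The values are FPKM as the authors deposited them, per gene and library. Per the submitters' processing notes the tools were TopHat and Cufflinks with the mm9 build, and the sources used here give no versions. Rows were added up for the 277 symbols listed at several loci. Another 21 symbols, whose status was not OK, were not used. Raw counts were not used: 59.8% of low values gave whole reads within 0.01, too few for a count test. The depth implied by the deposited intervals was 31.3 to 49.5 M reads per library.

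Differences were tested with limma 3.58.1 in R 4.3.3 on log2(FPKM + 1), a scale that understates the change of low genes. All 8 libraries entered 1 fit with a mean-variance trend. The 10479 genes with an FPKM of 1 or more in at least 2 libraries were tested, with Benjamini-Hochberg adjustment over all of them and a threshold of 0.05. The fit was tested on simulated data with independent noise in each library. That simulation held no deviation shared between replicates of the same number, so it does not show how the fit behaves with one. Same-numbered replicates of different lines deviated together, with correlations of 0.279 to 0.502 over these genes in the 6 pairs of lines. This pairing comes from the data and not from the labels, and a fit with the replicate number as a block is given beside counts of calls and beside the named members whose call it changes. The alternatives were other pseudocounts, filters, scalings and variance models, other handling of statuses and loci, only the libraries compared, the block, and each library left out.

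Genes named are the called members, isoform and subunit c genes, and a chosen set of core genes, not all of them catalytic. Also named are the highest and lowest subunit of each complex and the leading called genes of the other lists. Of the core genes, 1 is not reported here by name. Others are said to be chosen after their values were seen. The members and all lists were chosen with earlier results of these data known. Transcript lengths come from GENCODE vM21, matched by symbol, as the median over all protein-coding transcripts of a symbol. Promoters come from RefSeq (GRCm38.p6), and coordinates of gene entries are mm9.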

Additional observations from a re-analysis of the deposited data

Results flagged for a closer look

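Ndufab1 differed between the CBE lines, which share a genotype label. Its log2 difference from WT was -0.29 for CBE line 2 and -0.70 for CBE line 1. Tested directly by limma, these differed by 0.41 (adjusted p = 0.0233). Both libraries of line 2 were above both libraries of line 1. Without each library in turn the adjusted p reached 0.211, and the cause was not tested.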

How the results depend on the processing

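No called member of the respiratory group changed direction under the alternatives or in the 8 fits that left out a library, and of the medians of the 79 members only that between the CBE lines changed sign (0.08, with a range of -0.01 to 0.14). The genes of the other lists were tested with and without the block only, and their directions under the other alternatives were not run. Counts of calls moved more. With the replicate number as a block, 2 members were higher and 9 lower in the CBE lines than in WT (1 and 3 without it), 28 were lower in the Eµ-deleted line than in WT (3 without it), and between the Eµ-deleted and CBE lines 2 were higher and 18 lower in Eµ-deleted cells (1 and 2 without it). With only the libraries compared, these counts were 2 higher and 7 lower, 1 lower, and, between the CBE lines, 0 higher (1 with all 8 libraries in the fit). Quantile normalization gave 6 lower in the CBE lines and 5 lower in the Eµ-deleted line against WT, and, for the Eµ-deleted line against both CBE lines, 3 higher and 9 lower. In that last comparison a pseudocount of 0.1, no filter on low values and TPM scaling each gave 2 higher. Leaving out each library gave 0 to 2 higher and 0 to 7 lower (CBE lines against WT), 0 to 44 lower (Eµ-deleted against WT), 0 to 1 higher (between CBE lines), and 1 higher throughout and 1 to 37 lower (Eµ-deleted against CBE lines). The 44 and 37 came without Eµ-deleted replicate 1. A line left with 1 library was assumed to vary like the others. With 2 libraries a line, the fit has 4 residual degrees of freedom.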
